A study of Homo sapiens and Mus musculus with 30 samples.

Results

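Neural precursors derived from the human embryonic stem cell line H9 were profiled at a late and at an early stage, and the 2′-O-methylation of their ribosomal RNA was compared site by site. The samples are 2 of the 30 in the series and were chosen by their labels, H9 late neural precursors and H9 early neural precursors. They hold 6 of its 93 libraries, 3 for each stage. The study applied RiboMeth-seq to the developing mouse brain and to human pluripotent cells before and after directed differentiation, which the submitters describe as biological triplicates. The late precursors are labelled as H9 cells after neural differentiation, the early precursors as H9 cells after neural induction, and the mature neurons as H9 cells after neural maturation. The undifferentiated H9 cells carry no treatment label. All 4 samples are labelled wild type and passed through the same total RNA preparation, and no culture day is given.

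In ribosomal RNA the 2′ hydroxyl of the ribose is methylated at many fixed positions by the enzyme fibrillarin, which acts inside box C/D small nucleolar ribonucleoproteins. The position is set by base pairing between the rRNA and a guide RNA of the SNORD class, so that most sites have 1 named guide. Many of these sites are methylated in nearly all ribosomes of a cell, whereas others are methylated in a fraction of them, and this fraction can differ between cell types. RiboMeth-seq cleaves RNA in alkali, to which a 2′-O-methylated nucleotide is resistant, so that a methylated position shows few read ends relative to its neighbours.

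The sites on which the results turn are shown first, each with 10 bases of rRNA on either side as listed in the deposited files, written 5′ to 3′ with the methylated base in capitals. Site names use the customary snoRNA target numbering. Position in the deposited RNA is the same as the site number in 18S and 5.8S, whereas in 28S it is 3925 for Um3904, 3744 for Gm3723, 4370 for Gm4340, 3825 for Am3804, 3830 for Am3809 and 2860 for Cm2848. The first set was higher in late than in early precursors.
28S Um3904 (guide SNORD52): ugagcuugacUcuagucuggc
18S Um354 (guide SNORD90): uucgaacgucUgcccuaucaa
18S Gm1447 (guide SNORD127): caacuucuuaGagggacaagu
28S Gm3923 (guide SNORD111): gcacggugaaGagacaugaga
28S Gm3723 (guide SNORD87): ugaagcgcggGuaaacggcgg
The second set was lower in late than in early precursors.
28S Gm4340 (guide SNORD60): uuaagcaggaGgugucagaaa
28S Am3804: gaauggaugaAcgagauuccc
28S Am3809: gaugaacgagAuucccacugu
28S Cm2848 (guide SNORD50A): gucggcaagcCggauccguaa
The last set changed from undifferentiated H9 cells in both precursor stages and was not called between the stages.
18S Am576 (guide SNORD93): uccacuuuaaAuccuuuaacg
18S Gm867 (guide SNORD98): uaggaauaauGgaauaggacc
5.8S Um14 (guide SNORD71): cucuuagcggUggaucacucg
28S Am2388 (guide SNORD68): gccgaaguggAgaaggguucc
The windows of Am3804 and Am3809 overlap, so each of these sites lies among the neighbours against which the other is scored. 18S Gm1447 likewise has 1 other catalogued site within 6 bases.

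The unit throughout is the deposited methylation score, a fraction in which 0 stands for no protection from cleavage and 1 for full protection. It equals 1 minus the read ends at the site divided by a weighted mean over 6 neighbours on each side. The catalogue has 108 sites, of which 18S holds 41, 28S holds 65 and 5.8S rRNA holds 2, and 107 had a mean score of at least 0.1 and were tested. The site left out is 18S Um1668. Libraries held 13011645 to 27251439 rRNA read ends in late precursors, 14498559 to 31453523 in early precursors and 13718466 to 21560920 in undifferentiated H9 cells. The median counting error of a site was 0.00419 in late and 0.00424 in early precursors, while the median standard deviation between libraries was 0.00693 in late and 0.015 in early precursors. The spread between libraries was 1.66 times the counting error in late and 3.54 times in early precursors. The tables hold rRNA and other stable RNAs, so the identity of the cells could not be checked on protein-coding markers.

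Late and early precursors were sequenced with different index sets. The late libraries carry indexes 1 to 3, here called set 1, and the early libraries carry indexes 4 to 6, called set 2, with libraries numbered by index order. In a direct comparison stage and index set cannot be told apart. The 6 libraries of undifferentiated H9 cells carry both sets, 3 each, which allowed an index-matched comparison, in which the change from undifferentiated cells within set 1 in late precursors was set against the change within set 2 in early precursors. The labels do not say whether these 6 libraries came from 6 cultures or from fewer.

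Directly compared, 11 sites were higher in late than in early precursors, 10.3% of those tested, and 4 were lower, 3.74% (limma, adjusted p under 0.05). The 11 that rose were 18S Um121, Um354, Um1288 and Gm1447 and 28S Gm1612, Gm2411, Gm3723, Um3904, Gm3923, Gm4166 and Gm4362. The 4 that fell were 28S Cm2848, Am3804, Am3809 and Gm4340. Without regard to a test, all 3 late libraries lay above all 3 early libraries at 42 sites, 39.3% of those tested, and below them at 10 sites, 9.35%. The difference was positive at 74 sites and negative at 33, and its median over all tested sites was 0.0158. When every score was scaled to its library's upper quartile, 8 sites rose and 9 fell, and 7 of the 11 rising and 4 of the 4 falling sites remained among them. The share of rises among the calls thus moves with the scaling. All 15 differences had the same sign in the index-matched comparison. That comparison uses the same late and early libraries, so the shared sign is not separate support for the calls. The number of direct calls was 5, 9 and 6 without late library 1, 2 or 3, and 6 and 5 without early library 2 or 3.

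**Figure D1:**
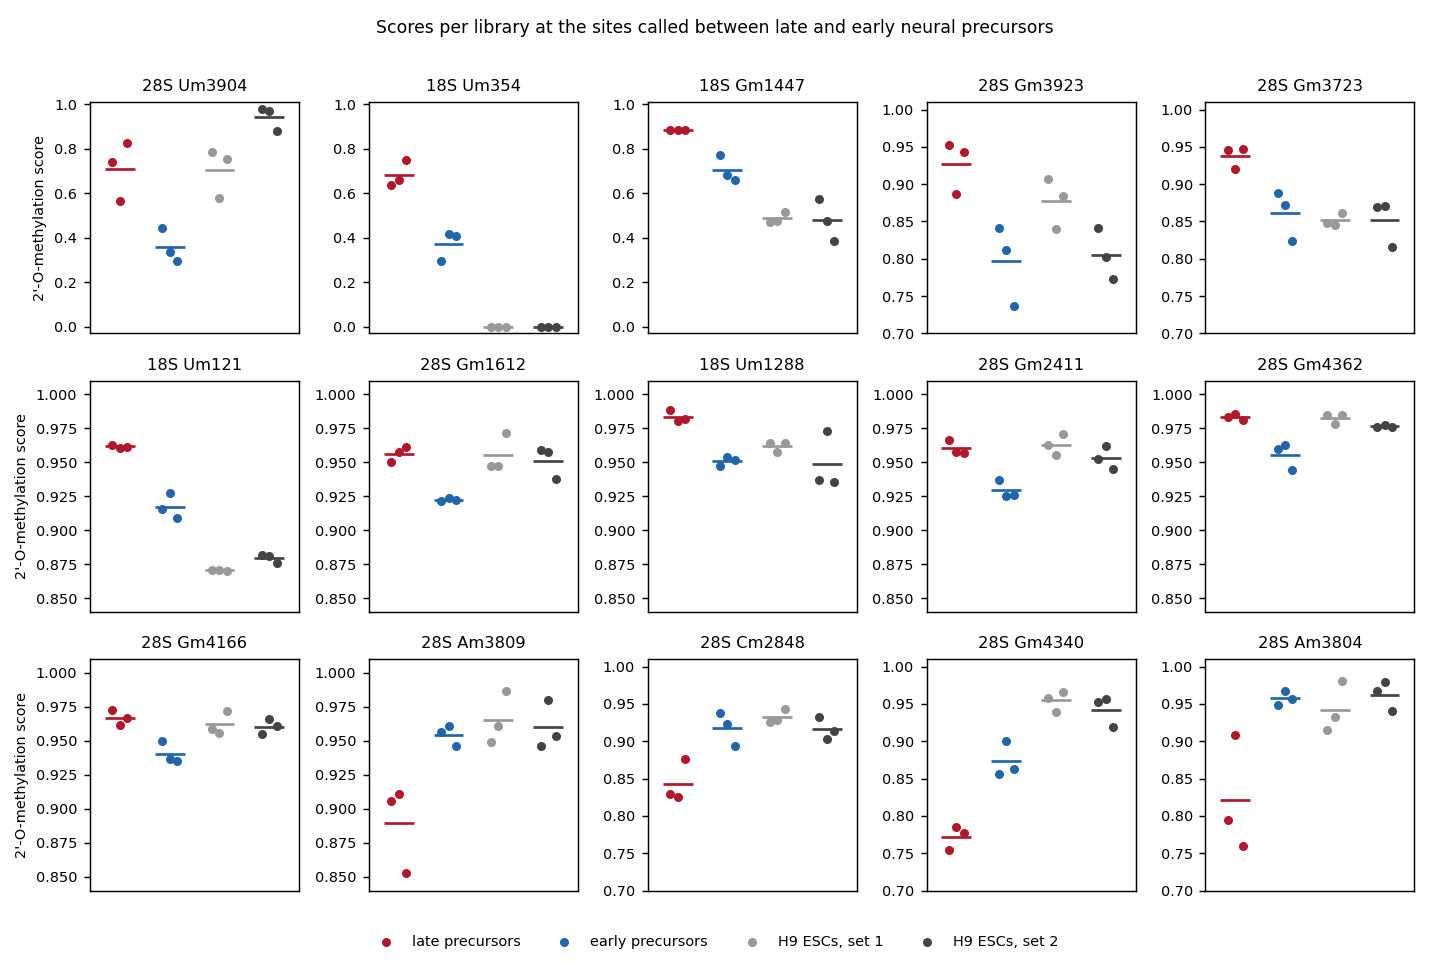
Methylation score (fraction, vertical axis) in each library at the 15 sites called between late and early neural precursors, from the largest rise to the largest fall; points are libraries in index order, bars are means, and vertical scales differ between panels. The 3 late libraries do not overlap the 3 early libraries at any of these sites, and 18S Um354 is at 0 in all 6 undifferentiated libraries.

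The largest difference was at 28S Um3904, the target of SNORD52. Its score was 0.742, 0.566 and 0.825 in late libraries, against 0.445, 0.337 and 0.295 in early libraries. The lowest late library lay above the highest early library, with a difference of 0.352 ± 0.0692 (SE, adjusted p = 0.00836). Undifferentiated cells scored 0.784, 0.579 and 0.756 with set 1 and 0.977, 0.971 and 0.881 with set 2, so the early precursors were the low samples. Late precursors differed from undifferentiated cells of set 1 by 0.00455 ± 0.0692 (adjusted p = 0.986), and early precursors from those of set 2 by -0.585 ± 0.0692 (adjusted p = 0.000115). The index-matched difference was 0.589 ± 0.0979 (adjusted p = 0.00623). When the read-end counts were tested with edgeR in place of the score, the direct call missed the threshold (edgeR, adjusted p = 0.0946).

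At this site the 2 kinds of read ends gave different pictures of late against early precursors. From 5′ ends alone, 28S Um3904 scored 0.984, 0.988 and 0.983 in late libraries, against 0.244, 0.174 and 0.135 in early libraries. Undifferentiated H9 cells scored between 0.978 and 0.984 by the same ends in both index sets. From 3′ ends alone the scores were 0.466, 0.101 and 0.619 in late libraries and 0.638, 0.606 and 0.427 in early libraries, which overlap, and the difference was -0.162 (adjusted p = 0.490). By 3′ ends, undifferentiated H9 cells scored 0.629, 0.322 and 0.519 with set 1 and 0.9755, 0.9605 and 0.789 with set 2. Early libraries thus lay below undifferentiated cells at every index of set 2. Late libraries lay below them at indexes 1 and 2 and above them at index 3. The 3′ scores were low at index 2 in the 5 human samples that carry it, lying between 0 and 0.322. These are the late precursors, the mature neurons and the undifferentiated H9, HUES4 and iPS cells. Mouse cortex samples carry index 2 as well, and their 3′ scores at this site were not examined. In each of these samples index 2 gave the lowest 3′ score of the 3 indexes.

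The series also holds H9 cells in which SNORD52 was knocked out or overexpressed, all sequenced with set 2, and these show the range of the assay at 28S Um3904. In the 6 knock-out libraries, from 2 samples, the 5′ score was 0 throughout and the 3′ score ranged from 0.0616 to 0.398. In the 6 overexpression libraries the 5′ score ranged from 0.886 to 0.944 and the 3′ score from 0.773 to 0.938. The 5′ scores of the early precursors thus lay nearer to the knock-out value than to the overexpression range, and in all 3 libraries their 3′ scores lay above the knock-out range and below the overexpression range. In 18 endoderm and mesoderm libraries with set 2 the 5′ score at this site was 0.898 to 0.964. Their 3′ scores ran from 0.3215 to 0.929, a range that holds the 3′ scores of all 3 early libraries. That range pools the indexes. At index 4 the early 3′ score was 0.6385, against 0.763 to 0.929 in these cells, and at index 5 it was 0.6056, against 0.608 to 0.831. At index 6 it was 0.427, above HUES4 mesoderm at 0.3215 and below the others, which ran from 0.548 to 0.810. This difference was not tested. Over 36 human libraries, leaving out the early precursors and the SNORD52 lines, the 5′ score was 0.898 to 0.992.

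**Figure D2:**
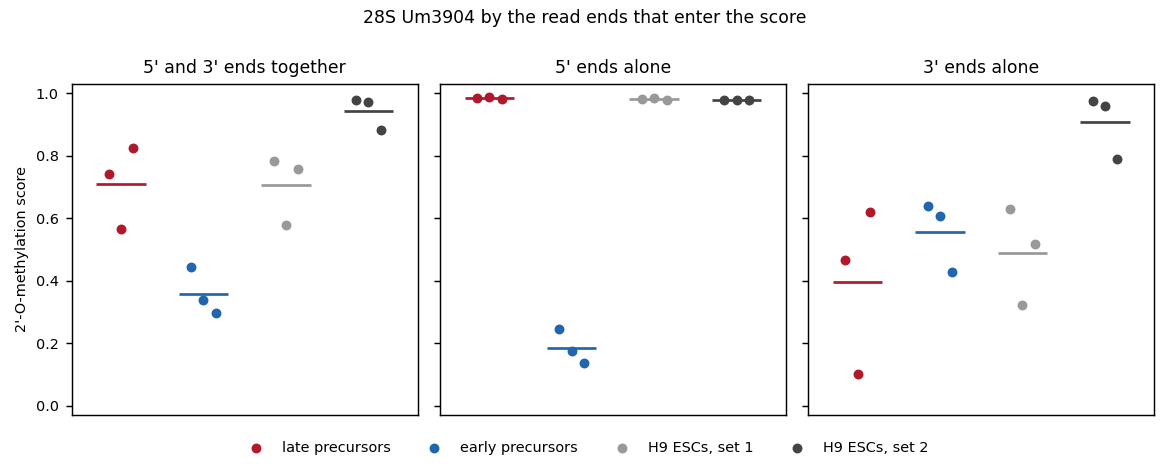
Methylation score (fraction, vertical axis) at 28S Um3904 from both kinds of read ends, from 5′ ends alone and from 3′ ends alone; points are libraries in index order and bars are means. By 5′ ends the late libraries sit between 0.983 and 0.988 and the early libraries between 0.135 and 0.244, while by 3′ ends the stages overlap.

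18S Um354, the target of SNORD90, was absent as a protected position in undifferentiated H9 cells and present in both precursor stages. The score was 0.639, 0.659 and 0.748 in late libraries, 0.295, 0.415 and 0.408 in early libraries and 0 in all 6 undifferentiated libraries. The stages did not overlap, and late exceeded early by 0.309 ± 0.0444 (adjusted p = 0.00154). The undifferentiated libraries, all at 0, enter the spread behind this SE. With only the 6 precursor libraries in the fit, the limma adjusted p was 0.0157. The change from undifferentiated cells was 0.682 in late precursors and 0.373 in early precursors. Mature neurons scored 0.745 ± 0.0264 (SD, n = 3). The undifferentiated libraries had more read ends at the site than the weighted mean of its neighbours, so their scores were negative before they were set to 0. A difference between index sets could not show at that floor, and the index-matched value of 0.309 ± 0.0628 (adjusted p = 0.0184) restates the direct difference. It missed the threshold with the index as a replicate block (adjusted p = 0.0631), without undifferentiated library 1 (adjusted p = 0.0773), without undifferentiated library 4 (adjusted p = 0.0621) and from 5′ ends alone (adjusted p = 0.110). Scores were similar by either kind of ends in late precursors, 0.707 by 5′ ends and 0.661 by 3′ ends, and less so in early precursors, 0.488 by 5′ ends and 0.257 by 3′ ends.

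18S Gm1447, the target of SNORD127, followed the same order. Its score was 0.884, 0.886 and 0.886 in late libraries and 0.773, 0.683 and 0.659 in early libraries, with undifferentiated libraries between 0.388 and 0.574. The 3 late libraries lay within a range of a few thousandths, whereas early libraries spread more widely, and the stages did not overlap. The direct difference was 0.180 ± 0.0452 (adjusted p = 0.0214). The index-matched difference of 0.171 ± 0.0639 had an adjusted p of 0.177, and of 0.0267 with the index as a replicate block. Late precursors exceeded undifferentiated cells by 0.398 (adjusted p = 4.63e-05) and early precursors by 0.226 (adjusted p = 0.00243).

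28S Gm3923, the target of SNORD111, and 28S Gm3723, the target of SNORD87, rose by less. Gm3923 scored 0.952, 0.887 and 0.943 in late libraries and 0.841, 0.812 and 0.737 in early libraries, a difference of 0.131 ± 0.0300 (adjusted p = 0.0154). Undifferentiated cells averaged 0.877 with set 1 and 0.805 with set 2, and the index-matched difference was 0.0587 (adjusted p = 0.571), so the direct call at Gm3923 was not matched by a call within index sets. The rise of Gm3923 from undifferentiated cells in late precursors had an adjusted p of 0.254, and of 0.0197 with the replicate block. Gm3723 scored 0.946, 0.920 and 0.947 in late libraries and 0.888, 0.872 and 0.824 in early libraries, a difference of 0.0761 ± 0.0206 (adjusted p = 0.0289). Undifferentiated cells averaged 0.852 in both sets, and the index-matched difference of 0.0764 had an adjusted p of 0.180, and of 0.0267 with the replicate block. The direct call at Gm3723 missed the threshold when the score used 2 neighbours on each side (adjusted p = 0.0631). The other 6 rising sites, 18S Um121 and Um1288 and 28S Gm1612, Gm2411, Gm4166 and Gm4362, all averaged above 0.9 in both stages and rose by 0.0264 to 0.0442. Of these, 18S Um1288 and 28S Gm2411, Gm4166 and Gm4362 were not called after scaling to the upper quartile. At 28S Gm1612, Gm2411, Gm4166 and Gm4362 the differences of late precursors from undifferentiated cells of set 1 ran from -0.00268 to 0.00484, and early precursors lay 0.0200 to 0.0287 below those of set 2, which was called at Gm4362 (adjusted p = 0.0175) and, with the replicate block, at Gm1612 (adjusted p = 0.0305).

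28S Gm4340, the target of SNORD60, fell in steps. It scored 0.754, 0.785 and 0.777 in late libraries, 0.856, 0.9003 and 0.863 in early libraries and 0.919 to 0.966 in the 6 undifferentiated libraries, and no library of one stage reached those of another. The direct difference was -0.101 ± 0.0174 (adjusted p = 0.00428) and the index-matched difference was -0.113 ± 0.0246 (adjusted p = 0.0209). The direct call held without any 1 of the 12 libraries, whereas the index-matched call was lost in 4 of these 12 fits, without late library 1, early library 2 or undifferentiated library 1 or 4, at adjusted p of 0.0554 to 0.0773. It was also lost after an arcsine transform (adjusted p = 0.0540), with 2 neighbours on each side (adjusted p = 0.124) and by edgeR (adjusted p = 0.0901). By 5′ ends the site averaged 0.765 in late and 0.910 in early precursors, and by 3′ ends 0.780 in late and 0.837 in early precursors. By 3′ ends the stages overlapped, with early library 3 at 0.769 and late libraries at 0.763, 0.794 and 0.783, and the site was not called. Mature neurons averaged 0.807 ± 0.0163 (SD, n = 3).

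The other falling sites were lower in late precursors and close to the undifferentiated level in early precursors, which differed from undifferentiated cells of set 2 by -0.00546 to 0.00182 at these 3 sites, none called. 28S Cm2848, the target of SNORD50A, scored 0.829, 0.825 and 0.876 in late libraries and 0.938, 0.923 and 0.893 in early libraries, a difference of -0.0751 ± 0.0175 (adjusted p = 0.0154). Its index-matched difference of -0.0912 had an adjusted p of 0.0811, and of 0.0123 with the replicate block. 28S Am3804 scored 0.795, 0.908 and 0.760 in late libraries, which varied widely, and 0.949, 0.967 and 0.956 in early libraries, a difference of -0.137 ± 0.0307 (adjusted p = 0.0154). 28S Am3809, 5 bases downstream, scored 0.906, 0.911 and 0.853 in late libraries and 0.957, 0.961 and 0.946 in early libraries, a difference of -0.0646 ± 0.0163 (adjusted p = 0.0214). At Am3809 the fall lay in the 5′ ends, which gave 0.646 ± 0.0481 in late and 0.938 ± 0.0118 in early precursors (SD, n = 3 each), while the 3′ ends gave 0.966 ± 0.00372 in late and 0.961 ± 0.00825 in early precursors. Am3804 showed 0.669 ± 0.159 in late and 0.966 ± 0.0150 in early precursors by 5′ ends, and 0.879 ± 0.0619 in late and 0.954 ± 0.0076 in early precursors by 3′ ends. The direct calls at Cm2848, Am3804 and Am3809 were each lost in 4 of the 12 fits that left out 1 library. These were the fits without late library 1 or 2 or early library 1 or 2 at Cm2848, without late library 1 or 3 or early library 2 or 3 at Am3804, and without late library 3 or any early library at Am3809. Among the rising sites, calls were lost without any late library or early library 2 or 3 at Gm1447, without late library 1 or 3 or early library 3 at Gm3923, and without late library 1 or 3 or early library 2 or 3 at Gm3723. Adjusted p in these fits was at most 0.106. By edgeR the call at Am3809 was also lost (adjusted p = 0.0520).

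Within their own index sets, both stages differed from undifferentiated H9 cells at many of the tested sites. Late precursors were called at 31 sites and early precursors at 24, or at 38 and 26 by edgeR, whose count between the stages was 31. Late precursors were higher at 23 sites, 21.5% of those tested, and lower at 8, 7.48%. Early precursors were higher at 16 sites, 15%, and lower at 8, 7.48%. Of these, 15 rising sites were called in both, which is 65.2% of the 23 in late precursors and 93.8% of the 16 in early precursors, and 4 falling sites were called in both, 50% of either list. No site was called in opposite directions. These comparisons share no library, and across the 107 sites their differences correlated with r = 0.771, a description only, since the sites share cell line, depth and base context. Between the undifferentiated libraries of the index sets no site passed limma at an adjusted p under 0.05, 10 sites had an unadjusted p under 0.05, and edgeR called 2. The index-matched comparison of the stages called 2 rising sites, 28S Um3904 and 18S Um354, 1.87% of those tested, and 1 falling site, 28S Gm4340, 0.935%, with Um354 subject to the floor at 0 described above. After scaling to the upper quartile it called 2 rising and 4 falling sites. Without undifferentiated library 3 it called 7 sites, and without undifferentiated library 1 or 4 it called 1.

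With the index as a replicate block, the index-matched comparison called 5 rising sites, 4.67% of those tested, and 2 falling sites, 1.87%. The rising sites were 18S Gm1447 and 28S Cm1868, Cm2409, Gm3723 and Um3904, and the falling sites were 28S Cm2848 and Gm4340. 28S Cm1868, the target of SNORD48, scored 0.853, 0.849 and 0.848 in late libraries and 0.810, 0.851 and 0.697 in early libraries, which overlap, against 0.640 in undifferentiated cells of set 1 and 0.734 in those of set 2. 28S Um3904 had an adjusted p of 3.61e-06 in this fit, with the difference unchanged at 0.589 and an SE of 0.0432. The block raised the sites called between late precursors and undifferentiated cells to 34 higher, 31.8%, and 13 lower, 12.1%, and those between early precursors and undifferentiated cells to 20 higher, 18.7%, and 12 lower, 11.2%.

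**Figure D3:**
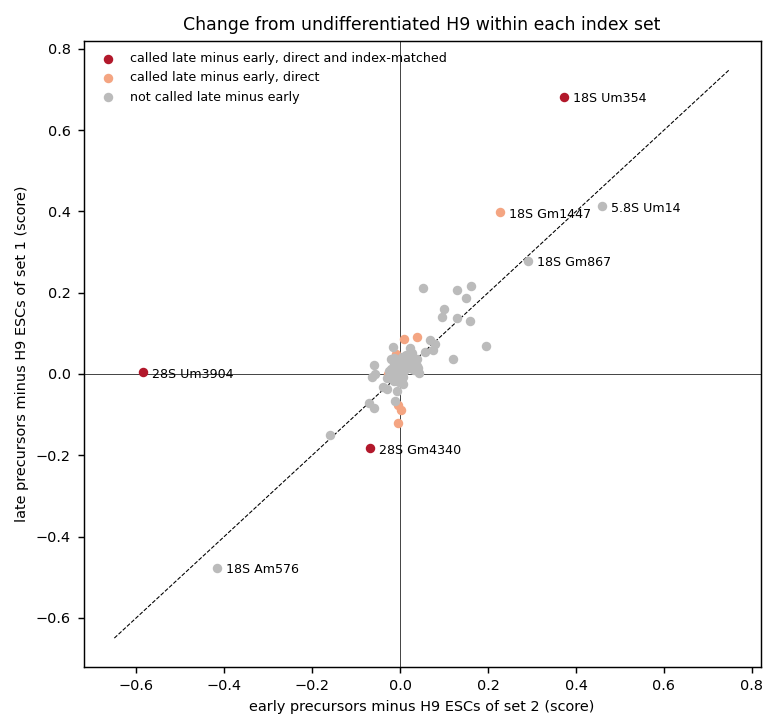
Difference in methylation score (fraction) from undifferentiated H9 cells of the same index set, in late precursors (vertical axis) against early precursors (horizontal axis), for the 107 tested sites, with the diagonal dashed. 18S Um354 lies at 0.682 and 0.373, 28S Gm4340 at -0.183 and -0.0694 and 28S Um3904 at 0.00455 and -0.585, while 18S Am576 and 5.8S Um14 lie near the diagonal.

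Several sites differed from undifferentiated cells in both stages and were not called between them. 18S Am576, the target of SNORD93, scored 0.298, 0.265 and 0.268 in late libraries and 0.197, 0.243 and 0.458 in early libraries, against 0.686 to 0.770 in the 6 undifferentiated libraries. The stages overlapped and differed by -0.0224 ± 0.0565 (adjusted p = 0.758), while the fall from undifferentiated cells was called in both, -0.476 in late and -0.417 in early precursors. 5.8S Um14, the target of SNORD71, scored 0.689, 0.622 and 0.654 in late libraries and 0.757, 0.761 and 0.714 in early libraries, against 0.129 to 0.532 in undifferentiated libraries. Every late library lay below every early library at Um14, but the difference of -0.0888 ± 0.0833 was not called (adjusted p = 0.444). Near the start of 5.8S rRNA the score rests on 5′ ends, since the 3′ score was 1 in all 12 libraries.

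18S Gm867, the target of SNORD98, averaged 0.967 ± 0.00503 in late and 0.895 ± 0.00475 in early precursors (SD, n = 3 each), without overlap, against 0.688 in undifferentiated cells of set 1 and 0.604 in those of set 2. The direct difference at Gm867 was 0.0725 ± 0.0366 (adjusted p = 0.183), and the index-matched one was -0.0123 (adjusted p = 0.910). SNORD68 guides both 18S Um428 and 28S Am2388. Um428 averaged 0.911 in late, 0.851 in early and 0.751 in undifferentiated cells of either set, and Am2388 averaged 0.862 in late, 0.848 in early and 0.645 and 0.686 in undifferentiated cells of set 1 and set 2. Both were called against undifferentiated cells in late and in early precursors, and neither was called between the stages, with adjusted p of 0.105 at Um428 and 0.758 at Am2388. At 18S Cm1272, the target of SNORD66, late precursors averaged 0.663 ± 0.0737 and early precursors 0.631 ± 0.0820 (SD, n = 3 each), and the rise over undifferentiated cells was called in late precursors (adjusted p = 0.00565), with an adjusted p of 0.0797 in early precursors.

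The remaining sites followed across the series were 18S Gm436 and Cm797, 5.8S Gm75 and 28S Um4197, Gm4588, Gm4593 and Gm4607. None was called between late and early precursors, directly or index-matched. Their direct differences ran from -0.0257 at Gm436 to 0.0730 at Gm4607, the target of SNORD121A/B, where late libraries scored 0.792, 0.789 and 0.789 and early libraries 0.671, 0.719 and 0.762 (adjusted p = 0.146). 28S Gm4593, the target of SNORD78, differed from undifferentiated cells by -0.0703 in late precursors (adjusted p = 0.0457) and by -0.0712 in early precursors (adjusted p = 0.0529, or 0.00737 with the replicate block). 28S Um4197 differed from undifferentiated cells by -0.03065 in early precursors (adjusted p = 0.0315) and by -0.00932 in late precursors (adjusted p = 0.521). 28S Gm4588, the target of SNORD91A/B, was called lower than undifferentiated cells with the replicate block only, with an adjusted p of 0.0476 in late and 0.0332 in early precursors. Of the 16 sites on this list, which was drawn up with earlier results of these data known, 3 were called between the stages, all rises, namely 18S Um354, 18S Gm1447 and 28S Um3904, beside 11 rises among the 107 sites tested, 10.3%. So small a count is not a result about the list.

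**Figure D4:**
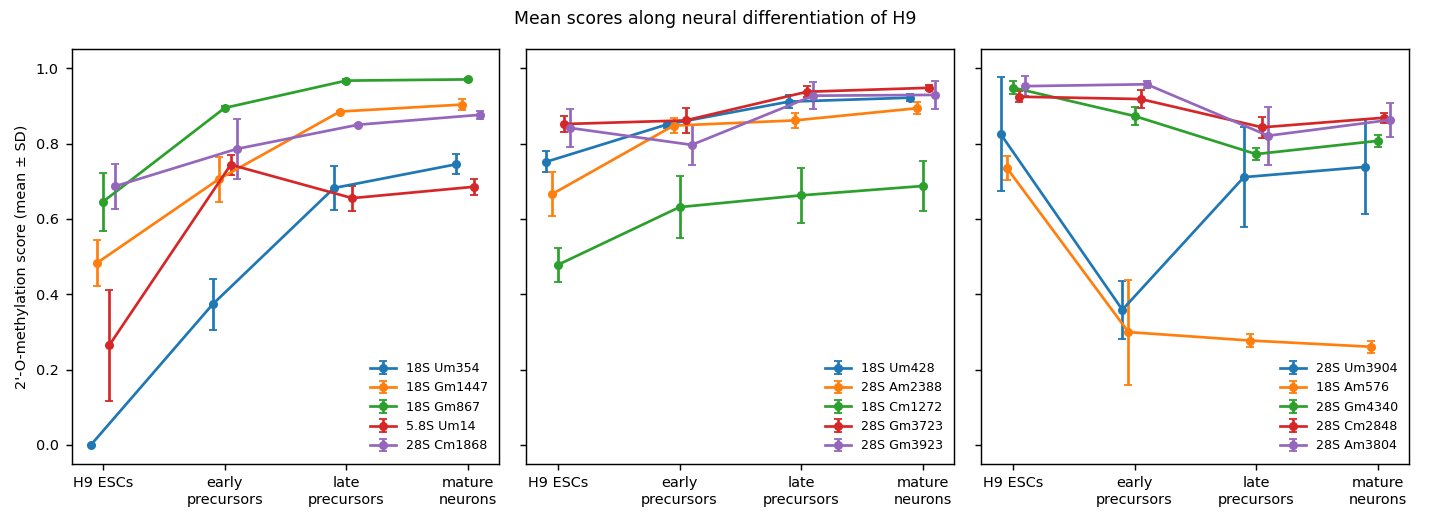
Mean methylation score (fraction, vertical axis) with SD in undifferentiated H9 cells (n = 6), early precursors, late precursors and mature neurons (n = 3 each) at 15 sites, drawn with small horizontal offsets. 18S Um354 climbs through 0, 0.373, 0.682 and 0.745, whereas 18S Am576 is low in all 3 differentiated samples and 28S Um3904 is low in early precursors.

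By nucleotide, guanosine sites held 7 of the 11 called rises among 30 tested and uridine sites held 4 among 20, while no rise was called among 34 adenosine or 23 cytidine sites, beside 10.3% of all sites. Differences between nucleotides were not tested. Of the called falls, 2 were at adenosines, 1 at a cytidine and 1 at a guanosine. The median difference was 0.0215 at guanosines, 0.0293 at uridines, 0.0125 at adenosines and 0.00479 at cytidines. By molecule, 18S rRNA had 4 rises and no fall among 40 sites, 28S rRNA had 7 rises and 4 falls among 65, and 5.8S rRNA had neither among 2. Grouped by their level in the undifferentiated cells of the HUES4 and iPS lines, 3 of the 15 sites under 0.8 and 12 of the 92 sites at or over 0.8 were called, both near the 15 called of all 107.

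The general level of methylation was compared over libraries, where 3 against 3 cannot reach the threshold. The median score of the tested sites was 0.953 ± 0.00287 in late precursors and 0.942 ± 0.0104 in early precursors (SD, n = 3 each; exact permutation test, two-sided p = 0.2, where 0.1 is the smallest possible). The median over 28S sites was 0.951 ± 0.00179 in late and 0.940 ± 0.00797 in early precursors, and the median from 5′ ends alone was 0.965 ± 0.00382 in late and 0.945 ± 0.00437 in early precursors, both without overlap between the libraries (exact permutation p = 0.1 each). Positions outside the catalogue averaged 0.137 ± 0.00157 in late and 0.167 ± 0.0107 in early precursors, without overlap between the libraries (exact permutation p = 0.1). This background of the score was thus higher in early libraries, and its part in the site differences was not tested. By 5′ ends alone 47 sites were higher and 8 lower in late precursors, with all 15 direct calls among them, whereas by 3′ ends alone 1 site, 18S Um354, was higher and none lower. The 3′ scores varied more between libraries, with a median SD of 0.0108 in late and 0.0216 in early precursors, while the median SD of 5′ scores was 0.00552 in late and 0.0105 in early precursors.

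Mouse cortex samples at E12.5, E14, E15.5, E17 and P0 gave a developmental series against which the stage differences could be set. The cortex samples at E11 and from adults were not used here. All of the 107 sites could be placed in mouse rRNA, and 47 were called higher with stage, 43.9% of those tested, while none was called lower. With scores scaled to the upper quartile, an alternative chosen after seeing the data, 35 were called higher and 4 lower. Of the 11 sites higher in late precursors, 6 were among these 47, which is 54.5% of the 11 and 12.8% of the 47. They were 18S Um121, Um354 and Gm1447 and 28S Gm2411, Gm3723 and Gm3923, and all 6 remained called after that scaling. Of the 4 lower sites, 28S Cm2848 rose in the mouse cortex (adjusted p = 0.0443, or 0.0743 after scaling) and the other 3 were not called. 18S Um354 scored 0.770 at P0, against 0.141 at E12.5, and 28S Gm2411 0.938 at P0, against 0.659 at E12.5. 28S Um3904 was not called in the mouse, with a score of 0.965 at P0 and at E12.5 (adjusted p = 0.658). Across the 107 sites the stage difference and the mouse slope correlated with r = 0.202, given as a description.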

How the data were processed

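Members and site lists were chosen with earlier results of these data known. Per the labels' protocols, total RNA was partly degraded in alkali, short fragments were ligated to linkers and sequencing was by Ion Proton. Per the file headers, the authors deposited, for every rRNA position and library, raw counts of 5′ ends, 3′ ends and their sum, together with a methylation score, a fraction from 0 to 1. Neither the aligner nor its version is given in the sources used here. The score was recomputed from the deposited counts as 1 minus the read ends at a site over the weighted mean of 6 neighbours each side, with negative values set to 0, and differed from the deposited fraction by at most 5.0e-13 over 3888 values. The 108 sites and their guides were taken from general knowledge of the published catalogue and placed on the deposited rRNA, with the named base required at each position. Scores of the 12 precursor and undifferentiated H9 libraries were fitted with limma 3.58.1 in R 4.3.3, as 4 groups with a trended prior, for sites with a mean score of at least 0.1 and at least 50 read ends in the mean neighbour. Benjamini-Hochberg adjustment ran over the 107 tested sites at a threshold of 0.05, and every adjusted p is from limma unless edgeR 4.0.16 is named. The text names sites called in both comparisons with 1 sign, then the largest direct calls up to 5 in each direction, then the list of 16 followed across the series; 28S Cm1868 and Cm2409 and the smaller direct calls were named after their values were seen. Libraries were paired by index: deviations from group means of same-index libraries correlated at 0.183 to 0.637 in 6 of 6 pairs, each over 0.1. Pairs of different indexes gave -0.506 to 0.196, the highest of them above the lowest same-index pair. Deviations cancel within a group, so the pairs are not independent, and the results with the replicate block rest on this pairing. As late and early libraries share no index, the direct comparison could not carry the block. The tests were also run on simulated scores, with planted changes larger than most of the direct calls and no effect of the index. That run therefore does not cover small changes or index effects. Counting errors cover counting only.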

Additional observations from a re-analysis of the deposited data

Results flagged for a closer look

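Within the 6 undifferentiated H9 libraries, which span both index sets, 1 library stood apart at 2 of the sites followed. Chance alone gives about 1 in 20 groups, and many sites were followed, so 2 such sites are not read as an excess. At 28S Gm4593 undifferentiated library 6 scored 0.839, while the other 5 scored 0.940 to 0.964, a gap of 0.811 of the whole range. At 18S Cm797 the same library scored 0.815, while the other 5 scored 0.880 to 0.917, a gap of 0.632 of the range. This library had the fewest read ends of the 6, 13718466, and the lowest median score over the tested sites, 0.916. Its counting error was 0.00713 at Gm4593 and 0.00949 at Cm797. By 3′ ends it scored 0.828 at Gm4593 and 0.7055 at Cm797, and by 5′ ends 0.864 at Gm4593 and 0.96 at Cm797. The part of depth or of either kind of ends in these values was not tested.

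The change from undifferentiated cells of the same index set differed between late and early precursors at 3 sites by the limma test of the difference itself. The change in late precursors minus that in early precursors was 0.589 at 28S Um3904, where the change was 0.00455 in late and -0.585 in early precursors. It was 0.309 at 18S Um354, with 0.682 in late and 0.373 in early precursors, and -0.113 at 28S Gm4340, with -0.183 in late and -0.0694 in early precursors. The adjusted p at Um3904 ranged from 0.00074 to 0.0329 over the 12 fits that left out 1 library. Of these 12 fits, 10 kept the call at Um354, where the undifferentiated cells lie at the floor of 0, and 8 kept it at Gm4340. From 3′ ends alone the index-matched difference at Um3904 was 0.257 (limma, adjusted p = 0.941).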

How the results depend on the processing

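The direct comparison of late with early precursors called 15 sites. It called 55 from 5′ ends alone, 1 from 3′ ends alone, 31 by edgeR and 30 with only the 6 precursor libraries in the fit, and 5 to 19 when 1 library was left out. The 3 index-matched calls became 6 after scaling to the upper quartile, 2 higher and 4 lower, 27 from 5′ ends, 1 from 3′ ends, 8 by edgeR, 5 with mature neurons in the fit and 1 to 7 with 1 library left out. With the index as a replicate block they became 7, and 11 with the block and scaling together, an alternative chosen after seeing the data. Calls of late precursors against undifferentiated cells, 31 in all, became 59 from 5′ ends, 16 from 3′ ends, 47 with the replicate block and 47 with block and scaling, and 28 to 37 with 1 library left out. Those of early precursors, 24 in all, became 55 from 5′ ends, 5 from 3′ ends and 17 to 26 with 1 library left out. Between the index sets of undifferentiated cells, 0 calls became 1 after scaling, 2 after an arcsine transform, 1 from 5′ ends, 2 by edgeR, 2 with neurons in the fit and 0 to 2 with 1 library left out. From 3′ ends alone the direct difference turned to -0.162 at 28S Um3904 and to 0.0056 at 28S Am3809. Neighbour windows of 2 bases, a prior without a trend, other score minimums and a neighbour minimum of 500 kept each count within 1.5 times. By edgeR the direct call at 28S Um3904 had an adjusted p of 0.0946. The causes were not tested, other than that the fits with fewer libraries hold fewer samples.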
